A study of Apostichopus japonicus with 9 samples.

Results

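Small RNAs were sequenced from the respiratory tree of Apostichopus japonicus, a sea cucumber that takes up oxygen through this branched organ. The animals had spent 3 days at a dissolved oxygen held at 2 mg/L (the DO2 group), at 4 mg/L (the DO4 group) or at 8 mg/L (the DO8 group). The DO8 group was the control, and each group held 3 small RNA libraries, each made from the pooled RNA of 3 animals. The spread between libraries is therefore a spread between pools and not between single animals. The entries described here are those named miR-6236, miR-6240, miR-1973, miR-4171 or miR-2835, with any arm suffix. The rule found 10 entries of the 475 in the files, of which 186 had a known miRNA name and 289 were predicted. The families had been chosen by their deposited values, which were high at DO2 and low or 0 elsewhere, so every difference between DO2 and the other groups below is a description without a test. The difference between DO4 and DO8 was not used to pick them and was tested, though low levels in both groups were part of the choice.

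miRNAs are cut from the arms of a hairpin precursor, loaded into an Argonaute protein, and guided to target transcripts mainly by their seed. Small RNA libraries also hold fragments of longer structural RNAs such as rRNA and tRNA, which are usually sorted out by alignment before miRNAs are counted. As background, the letters of miR-6236, miR-6240 and miR-4171 entries are known as stretches of the cytoplasmic large-subunit rRNA of animals, and those of miR-1973 as a stretch of the mitochondrial large-subunit rRNA. No rRNA sequence of A. japonicus was used here, so the entries were not aligned to it. For miR-2835-5p no such origin is given here.

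The sequences of all 10 entries are shown because their overlaps set what the values can tell. Each is written 5′ to 3′ as DNA letters from the deposited files, with the seed, bases 2 to 8, in capitals.
Aja-miR-6236-3p: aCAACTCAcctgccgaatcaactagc
Aja-miR-6236-5p: aTCAACTAgccctgaaaatga
Aja-miR-6236: cCTGAAAAtgaatggcgc
Aja-miR-6240-3p: aATGTGATttctgcccagtgc
Aja-miR-6240-5p: aTGTGATTtctgcccagtgct
Aja-miR-6240: aTGTGATTtctgcccagtgc
Aja-miR-1973-3p: cCGTGCAAaggtagcataat
Aja-miR-1973-5p: cGTGCAAAggtagcataatcact
Aja-miR-4171-5p: tGACTCTCttaaggtagc
Aja-miR-2835-5p: cCCGGACCctggttcttc

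The entries were 18 to 26 nt long. Among the 186 known entries 68 were 22 nt long, but none of the 10 described here had that length. Aja-miR-6236, Aja-miR-4171-5p and Aja-miR-2835-5p were 3 of the 19 known entries of 18 nt, and Aja-miR-6236-3p was 1 of the 2 known entries of 26 nt. Aja-miR-2835-5p had the highest GC content of the 10, 66.7%, and Aja-miR-6236-5p the lowest, 38.1%. Aja-miR-6240 and Aja-miR-6240-5p had the same seed. The seed of Aja-miR-1973-5p was also that of Aja-miR-19d, a known entry outside the families described here, and the remaining seeds occurred in no further entry.

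The forms of a family lay on the same strand and ran into one another. The miR-6236 forms are written again with the bases they have in common with another form in capitals, to show how they follow each other.
Aja-miR-6236-3p: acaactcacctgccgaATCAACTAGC
Aja-miR-6236-5p: ATCAACTAGCCCTGAAAATGA
Aja-miR-6236: CCTGAAAATGAatggcgc

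Joined by these overlaps, the miR-6236 forms covered a run of 44 bases, in which the form named 3p took bases 1 to 26, the form named 5p bases 17 to 37 and the form without a suffix bases 27 to 44. The form named 3p therefore lay upstream of the form named 5p, whereas in a hairpin precursor the 5p arm comes first. The miR-6240 forms differed only at their ends. In their run of 22 bases, the 3p form took bases 1 to 21, the 5p form bases 2 to 22 and the form without a suffix bases 2 to 21. The miR-1973 pair had 19 bases in common. The 5p and 3p arms of a hairpin pair with each other, so the opposite strand was searched as well. The longest run that a 5p form had in common with the reverse complement of its 3p form was 4 bases for miR-6236, 3 bases for miR-6240 and 4 bases for miR-1973, against 10, 20 and 19 bases on the same strand. Aja-miR-4171-5p and Aja-miR-1973-5p had a run of 8 bases in common. None of the 465 other entries had a run of 12 or more bases in common with any of the 10, on either strand, and none had a run of 8 or more with Aja-miR-4171-5p on the same strand.

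The deposited values are reads scaled by the authors with a factor for each library. The worth of 1 read was worked out from the steps between values, which leave several units possible. The unit taken was the one whose predicted miRNA reads came closest to the study's own total for that class. It was 1.22 to 6.18 in the DO2 libraries and 0.556 to 0.682 in the others. The miRNA reads worked out in this way were 335658, 628808 and 1740914 in DO2_1, DO2_2 and DO2_3, and 4681523 to 6024869 in the DO4 and DO8 libraries. These reads fall short of the miRNA class totals of the same libraries, which are 1.61 to 1.78 times as large, so levels per rRNA read or per clean read rest on the reads worked out here. A floor of 3 reads therefore stood at a value of 3.65 to 18.6 at DO2 and of 1.67 to 2.05 elsewhere. Of the 475 entries, 90 had a value in each of the 3 libraries of some group and were tested with limma on log2(value + 1). Of the 10 entries, 9 were among them, and Aja-miR-1973-3p was not. The libraries also stood apart in their RNA classes, for which the study's own class totals were used as denominators. Relative to the library with the lowest rRNA share of the clean reads, the rRNA share was 45.2-fold, 54.8-fold and 34.0-fold in the DO2 libraries and 1.00-fold to 3.42-fold in the others. The snRNA share was 712-fold to 838-fold the lowest at DO2 and 1.00-fold to 2.10-fold elsewhere, and the tRNA share 6.44-fold to 9.31-fold and 1.00-fold to 2.03-fold. Oxygen level and RNA class content cannot be told apart here, because all 3 libraries of DO2 differ in both.

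The most abundant form of the miR-6236 family was Aja-miR-6236-5p. Its values were 23418, 12932 and 1972.9 in DO2_1, DO2_2 and DO2_3, 259, 168.4 and 131 in DO4_1, DO4_2 and DO4_3, and 62.2, 81.2 and 180 in DO8_1, DO8_2 and DO8_3. The lowest DO2 library lay above all 6 others, and the ranges of DO4 and DO8 overlapped. The 26 nt form Aja-miR-6236-3p had values of 3201, 1749 and 327.4 at DO2, 8.27, 15.0 and 17.7 at DO4, and 2.39, 2.78 and 27.9 at DO8. DO8_3 was the highest of the 6 libraries outside DO2, and DO8_1 and DO8_2 were the lowest. The 18 nt form Aja-miR-6236 was listed at DO2 alone, at 161, 107 and 10.95.

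The miR-6240 family was led by Aja-miR-6240-5p. Its values were 32324, 16268 and 4314 at DO2, 104, 119 and 56.0 at DO4, and 59.5, 47.3 and 111 at DO8. Again all DO2 libraries lay above the rest, with DO4 and DO8 overlapping. Aja-miR-6240, which lacks the last base of the 5p form, had values of 9033, 3874 and 684 at DO2, 2.65, 21.8 and 4.43 at DO4, and 9.57, 4.17 and 11.6 at DO8. Aja-miR-6240-3p, which lacks that base too and starts 1 base earlier, had values of 3346, 1501 and 276 at DO2, 0, 8.86 and 2.85 at DO4, and 4.48, 1.39 and 6.68 at DO8. In DO8_2 the value of 1.39 was below that of 3 reads. Within DO2 all 6 forms of both families ran in the order DO2_1, DO2_2, DO2_3, the reverse order of the depth of these libraries.

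**Figure D1:**
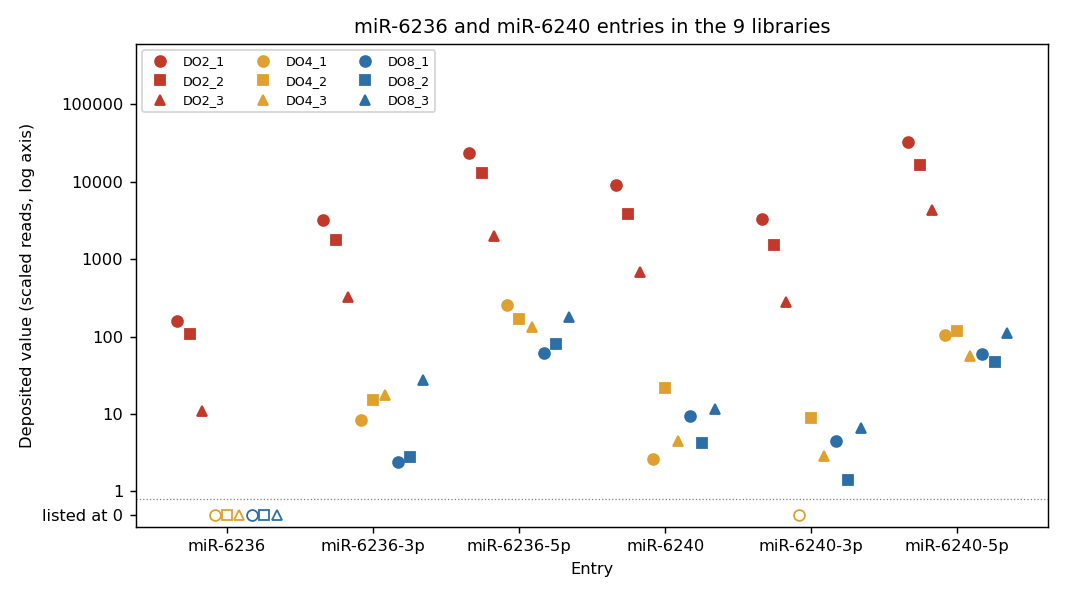
Deposited values (scaled reads, log axis) of the 6 miR-6236 and miR-6240 entries in each of the 9 libraries, coloured by group, with open symbols for values listed at 0. The DO2 libraries lie above all others for every entry, from 10.95 to 32324, and the DO4 and DO8 libraries overlap wherever the entry is listed.

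On the log2(value + 1) scale, the difference of DO2 from DO8 was 6.43 (SE 0.81) for Aja-miR-6236-5p, 7.42 (SE 1.01) for Aja-miR-6236-3p, 7.58 (SE 0.68) for Aja-miR-6240-5p, 8.35 (SE 0.99) for Aja-miR-6240 and 7.91 (SE 1.07) for Aja-miR-6240-3p. These sizes chose the entries and carry no test. Every DO2 library lay above all 6 others in all 9 entries that were tested, and this held for 23.3% of the 90 entries tested. In the limma fit 23.3% of these 90 entries were called higher at DO2 than at DO8 and 24.4% higher at DO2 than at DO4, and all 9 were among them, as the way they were picked fixes. Nothing is read from that count.

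Between DO4 and DO8, 4 of the 9 entries were at 0 in all 6 libraries and could not be called. Of the other 5 entries 0 were called, against 0% of the 90 tested (limma, 1 entry at an unadjusted p under 0.05). The difference of DO4 from DO8 in log2(value + 1) was 0.88 (SE 0.81) for Aja-miR-6236-5p, with a limma adjusted p of 0.802. It was 0.97 (SE 1.01) for Aja-miR-6236-3p with the same adjusted p of 0.802. For the miR-6240 forms it was 0.38 (SE 0.68) for Aja-miR-6240-5p, -0.20 (SE 0.99) for Aja-miR-6240 and -0.47 (SE 1.07) for Aja-miR-6240-3p, with limma adjusted p of 0.870, 0.969 and 0.901. With standard errors of 0.68 to 1.07, a difference of 1 on the log2 scale is not detectable for these forms. The sign for Aja-miR-6240 turned to 0.33 without DO4_1, to 0.05 without DO4_3 and to 0.05 without DO8_3, and that for Aja-miR-6240-3p to 0.41 without DO4_1.

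How far DO2 stood above the rest depended on the denominator. Summed over the 6 forms of both families, the deposited values were 71482, 36431 and 7585 at DO2 and 136.8 to 374 at DO4 and DO8, and the median of DO2 was 134 times that of the rest. As a share of the miRNA reads of a library, the sum was 3.44%, 1.80% and 0.358% at DO2 and 0.00404% to 0.0124% in the others. The share in DO2_1 was thus the largest and that in DO2_3 the smallest of the group.

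Expressed per 1000000 clean reads, the sum was 1188, 1139 and 566 reads at DO2 and 20.7 to 55.003 in the other libraries, with a DO2 median 29.0 times that of the rest. DO2_1 and DO2_2, which differed about as much as their depths on the deposited scale, were close to each other on this scale. Aja-miR-6240-5p alone stood at 537, 508 and 322 reads per 1000000 clean reads at DO2 and at 7.40 to 18.1 elsewhere. On both scales all DO2 libraries stayed above all others.

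Expressed per 1000 rRNA reads of the same library, the groups overlapped. The sum over both families was 20.2, 15.9 and 12.7 at DO2, 21.1, 13.3 and 8.98 at DO4, and 13.5, 16.4 and 12.3 at DO8. The highest and the lowest of the 9 libraries were both DO4 libraries. The means were 16.3 ± 3.72 at DO2, 14.5 ± 6.16 at DO4 and 14.1 ± 2.12 at DO8 (SD, n = 3). The difference of DO4 from DO8 was within the spread of the libraries (two-sided exact permutation test, p = 0.9). With 3 libraries against 3 the smallest possible p is 0.1, so neither this test nor the others of its kind below could pass 0.05. With reads scaled to the miRNA class totals the means were 26.7, 25.3 and 24.8, and the groups overlapped again. The median of DO2 was 1.19 times that of the other 6 libraries. The rRNA reads had been removed by the authors before miRNAs were matched, so the reads of the families and the rRNA reads do not overlap.

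**Figure D2:**
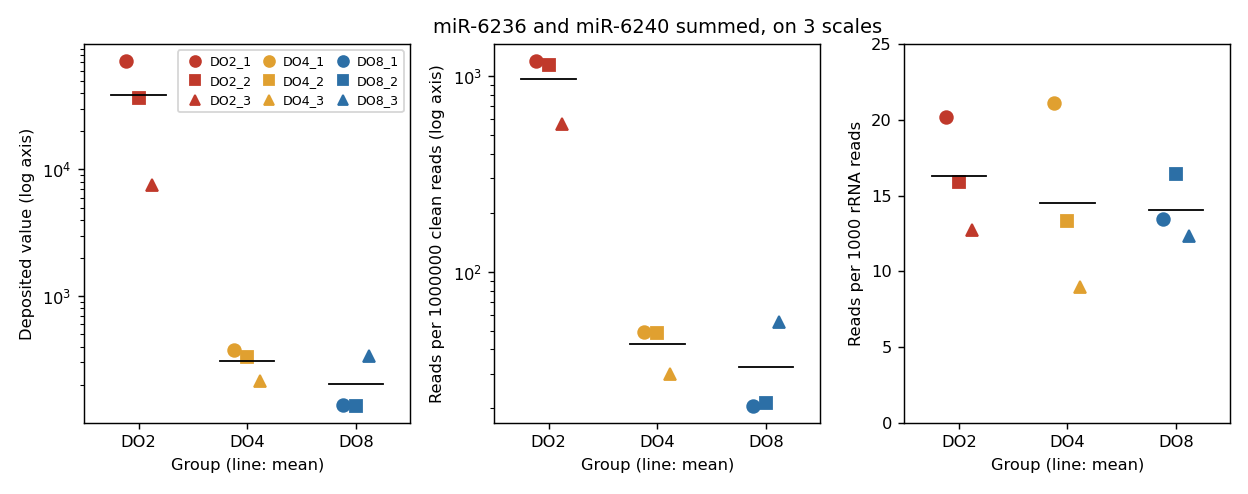
Sum of the miR-6236 and miR-6240 entries in each library as deposited value (left, log axis), reads per 1000000 clean reads (middle, log axis) and reads per 1000 rRNA reads (right, linear axis from 0), with a line at the mean of each group of 3 libraries. The DO2 libraries lie above the rest on the first pair of scales, and per 1000 rRNA reads the DO2 range of 12.7 to 20.2 lies inside the DO4 range of 8.98 to 21.1.

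With tRNA or snRNA reads as the denominator the DO2 libraries did not overlap with the others. Per 1000 tRNA reads, both families together had 366, 255 and 121 reads at DO2 and 36.9 to 87.3 in the other libraries. Per 1000 snRNA reads, the order was turned around, with 83.0, 93.7 and 40.3 at DO2 and 963 to 3005 elsewhere.

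Taken alone, the miR-6236 family had 7.55, 6.46 and 3.88 reads per 1000 rRNA reads at DO2, 15.1, 7.32 and 6.30 at DO4 and 6.29, 10.1 and 7.60 at DO8. DO2_3 was the lowest of the 9 libraries and DO4_1 the highest. The exact permutation p for DO4 against DO8 was 0.8. The miR-6240 family had 12.6, 9.45 and 8.86 reads per 1000 rRNA reads at DO2, 6.02, 5.99 and 2.68 at DO4 and 7.16, 6.34 and 4.71 at DO8. Here every DO2 library lay above the 6 others, with a DO2 median 1.57 times theirs, and the exact permutation p for DO4 against DO8 was 0.5.

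The proportion of both families in a library does not depend on the scaling. The ratio of miR-6240 to miR-6236, each summed over its forms, was 1.67, 1.46 and 2.28 at DO2, 0.399, 0.818 and 0.426 at DO4, and 1.14, 0.629 and 0.620 at DO8. The DO2 libraries did not overlap with the others, and DO8_1 came closest to them. The means were 1.80 ± 0.426 at DO2, 0.547 ± 0.235 at DO4 and 0.796 ± 0.297 at DO8 (SD, n = 3), and the two-sided exact permutation p for DO4 against DO8 was 0.3, where 0.1 is the smallest possible. The 5p forms alone gave ratios of 1.38, 1.26 and 2.19 at DO2 and 0.401 to 0.957 in the others. The separation of DO2 was also present in the 5p forms, therefore, but DO2 carries no test.

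Counting error alone leaves the nearest pair of libraries unresolved. miR-6240 made up 59.4% of the reads of both families in DO2_2 (Wilson 95% interval 58.5 to 60.3, of 11288 reads), the lowest share at DO2. It made up 53.2% in DO8_1 (46.8 to 59.6, of 231 reads), the highest share outside DO2. The intervals of these libraries overlap, and those of DO2_1 and DO2_3 lie above all others. The intervals cover counting error only.

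The forms within a family were also compared. Aja-miR-6240-5p held 72.3%, 75.2% and 81.8% of the miR-6240 family at DO2, 97.5%, 79.5% and 88.5% at DO4 and 80.9%, 89.5% and 85.8% at DO8. DO2_1 and DO2_2 had the lowest shares, and DO2_3 lay among the other libraries. Aja-miR-6236-5p held 85.4% to 87.5% of the miR-6236 family at DO2 and 86.6% to 96.9% elsewhere. The ratio of Aja-miR-6236-3p to Aja-miR-6236-5p was 0.137, 0.135 and 0.166 at DO2, 0.0319, 0.0891 and 0.135 at DO4 and 0.0385, 0.0342 and 0.155 at DO8. DO4_3 and DO8_3 had ratios in the range of DO2, and the remaining 4 libraries lay below it. Outside DO2 this ratio rested on 4 to 48 reads of Aja-miR-6236-3p, with 4 in DO8_1 and 5 in DO8_2. The ratio of Aja-miR-6240-3p to Aja-miR-6240 was 0.370 to 0.403 at DO2 and 0 to 0.643 elsewhere, where it rested on 4 to 32 reads of Aja-miR-6240 in a library.

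**Figure D3:**
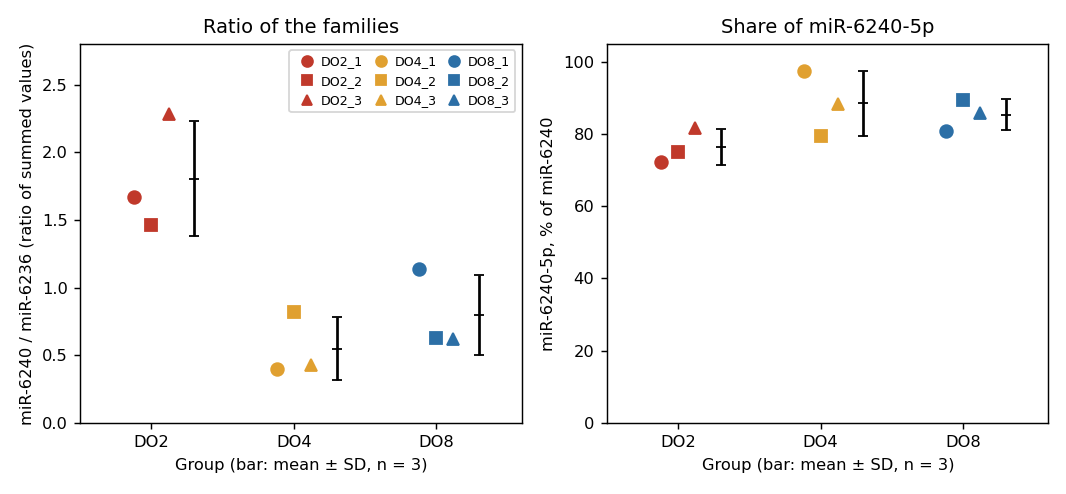
Ratio of the summed miR-6240 to the summed miR-6236 values (left) and share of Aja-miR-6240-5p in the miR-6240 family in percent (right) in each of the 9 libraries, with the mean ± SD of each group of 3. The ratio is 1.46 to 2.28 at DO2 and 0.399 to 1.14 elsewhere, and the share in DO2_3 lies among those of the DO4 and DO8 libraries.

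The reads behind the forms were not always whole. Of the values listed, those of Aja-miR-6240-5p lay within 0.02 of a whole read in 3 of 9 libraries, those of Aja-miR-6240-3p in 3 of 8 and those of Aja-miR-6240 in 6 of 9. For Aja-miR-6236-5p this was so in 7 of 9 libraries, and likewise for the 3p form. In Aja-miR-6236, Aja-miR-4171-5p, Aja-miR-2835-5p and Aja-miR-1973-5p all listed values were whole. The single value of Aja-miR-1973-3p was not whole. How parts of reads arose was not tested, and the split between overlapping forms is uncertain where the authors' counting divided reads.

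The remaining entries were listed at DO2 alone. In the files 4 known entries were listed in every DO2 library and in no other, and these were Aja-miR-6236, Aja-miR-4171-5p, Aja-miR-2835-5p and Aja-miR-1973-5p. This count covers known names only, and the pattern was not particular to them. Predicted entries with the same pattern were also tested, with differences of DO2 from DO8 of 5.56 (SE 0.48) and 5.02 (SE 0.49) in log2(value + 1). The values of Aja-miR-4171-5p were 377, 181 and 7.30 in DO2_1, DO2_2 and DO2_3, which are 61, 56 and 6 reads. Aja-miR-2835-5p had values of 43.3, 77.5 and 42.6, which are 7, 24 and 35 reads. Aja-miR-1973-5p had values of 12.4, 54.9 and 30.4, which are 2, 17 and 25 reads.

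In reads, these entries did not move alike among the DO2 libraries. Aja-miR-4171-5p had the fewest reads in DO2_3, the deepest of them, and Aja-miR-2835-5p and Aja-miR-1973-5p had the most reads there. The contrast depended on the scale. In deposited values Aja-miR-2835-5p was highest in DO2_2 at 77.5, and its 42.6 in DO2_3 was close to the 43.3 in DO2_1. Aja-miR-1973-5p was also highest in DO2_2, at 54.9 against 30.4 in DO2_3. Aja-miR-6236, with 26, 33 and 9 reads, had the fewest in DO2_3, as Aja-miR-4171-5p did, but the most in DO2_2. Aja-miR-1973-3p was listed in DO2_2 alone, at a value of 8.07, which is 2.5 reads and under the floor of 3.

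Per 1000 rRNA reads, Aja-miR-4171-5p had 0.106, 0.0789 and 0.0123 reads in the DO2 libraries and Aja-miR-6236 had 0.0453, 0.0465 and 0.0184. Aja-miR-2835-5p had 0.0122, 0.0338 and 0.0716, and Aja-miR-1973-5p had 0.00349, 0.0240 and 0.0511. The first pair was lowest in DO2_3 and the second pair highest there. Aja-miR-6236 amounted to 6.87, 8.24 and 5.55 reads per 1000 reads of Aja-miR-6236-5p, the form it overlaps by 11 bases.

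A count of 0 in a single DO4 or DO8 library allows up to 3 reads by counting error alone, although the smallest value listed in these libraries was 1.33 to 1.67 reads. At the mean DO2 rate per rRNA read, each DO4 and DO8 library would hold 0.987 to 3.10 reads of Aja-miR-4171-5p, and only DO8_3 would pass 3 reads. It would hold 0.587 to 1.85 reads of Aja-miR-2835-5p, 0.551 to 1.73 of Aja-miR-6236 and 0.392 to 1.23 of Aja-miR-1973-5p, all below 3. The reads rest on the worked-out depth, and the class totals would raise them. From its ratio to Aja-miR-6236-5p, 0.716 to 2.70 reads of Aja-miR-6236 would be found in each of these libraries, and 9.68 over all 6. Over all 6 libraries the mean rates per rRNA read give 11.9 reads of Aja-miR-4171-5p, 7.06 of Aja-miR-2835-5p, 6.62 of Aja-miR-6236 and 4.72 of Aja-miR-1973-5p. In each case 0 were listed, so the 6 libraries jointly pass the floor of 3 at the mean rate. At the lowest rate of a DO2 library the sums were 2.21, 2.20, 3.31 and 0.628 in the order of the mean-rate sums. Of these only that of Aja-miR-6236 passes the floor on the worked-out reads. With reads scaled to the class totals, those of Aja-miR-4171-5p and Aja-miR-2835-5p would pass it too. In a single library, then, an absence was in most cases not detectable at this depth. A limit on the reads an entry needed to be listed is not given in the sources used here.

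**Figure D4:**
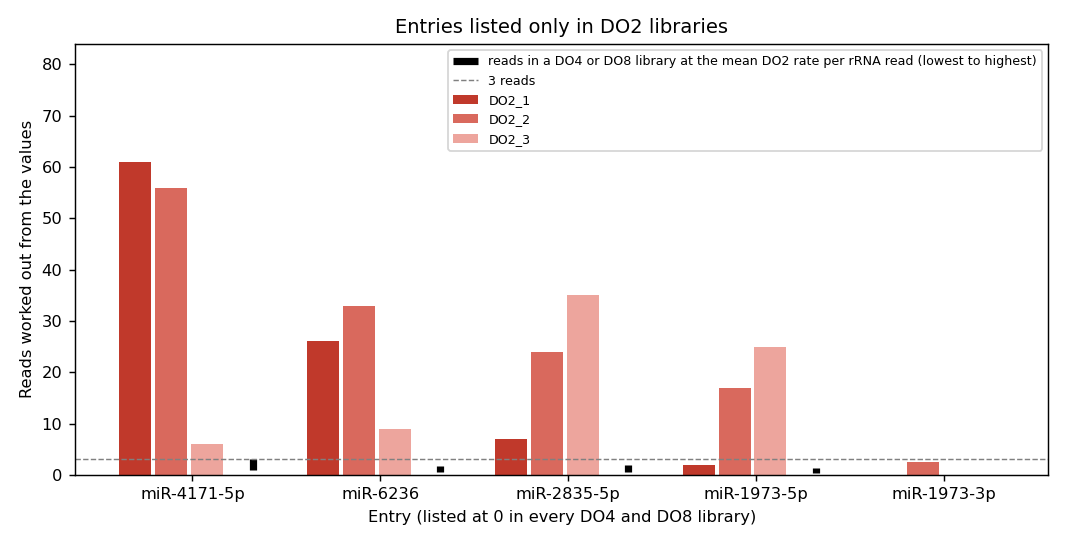
Reads of the 5 entries listed only at DO2 libraries (bars from 0, worked out from the deposited values) and, as black lines, the lowest to highest number of reads that a DO4 or DO8 library would hold at the mean DO2 rate per rRNA read. The dashed line marks 3 reads, which only the black line of Aja-miR-4171-5p passes, at 3.10 reads.

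The relation of the entries to the rRNA share was examined over the 6 DO4 and DO8 libraries. The DO2 libraries form a separate cluster in rRNA share, so no correlation was pooled over all 9, and 3 libraries a group are too few for one within a group. The 5 entries listed in at least 5 of the 6 libraries were compared with the rRNA, tRNA and snRNA shares, which gave 15 relations, and none passed adjustment after Benjamini and Hochberg. The closest relation was that of Aja-miR-6236-3p to the rRNA share, with Pearson's r of 0.971 (exact permutation p = 0.00556, adjusted p = 0.0729) and Spearman's rho of 0.886 (exact permutation p = 0.0333, adjusted p = 0.25). Without DO8_2 and DO8_3, the libraries farthest from the median share, r was 0.958. The lowest values of Aja-miR-6236-3p, in DO8_1 and DO8_2, rested on 4 and 5 reads. The same entry had an r of 0.939 with the tRNA share (exact permutation p = 0.00972, adjusted p = 0.0729), rho was 0.886 (exact permutation p = 0.0333, adjusted p = 0.25), and r was 0.785 without DO8_1 and DO8_3. Its r with the snRNA share was 0.00135 (exact permutation p = 0.999).

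The other forms had lower correlations with the rRNA share. Pearson's r was 0.679 for Aja-miR-6240-5p, 0.633 for Aja-miR-6240-3p, 0.498 for Aja-miR-6240 and 0.482 for Aja-miR-6236-5p, with rho of 0.771, 0.657, 0.657 and 0.6. Their exact permutation p were 0.122, 0.186, 0.335 and 0.326 for r and 0.103, 0.175, 0.175 and 0.242 for rho. The adjusted p were 0.420, 0.420, 0.502 and 0.502 for r and 0.453 in each case for rho. Without DO8_2 and DO8_3, r fell to between 0.278 and 0.448. DO4_1 had the highest Aja-miR-6236-5p value of the 6 libraries at an rRNA share of 1.78-fold the lowest, while DO8_3, with the highest rRNA share, had the highest Aja-miR-6236-3p value.

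**Figure D5:**
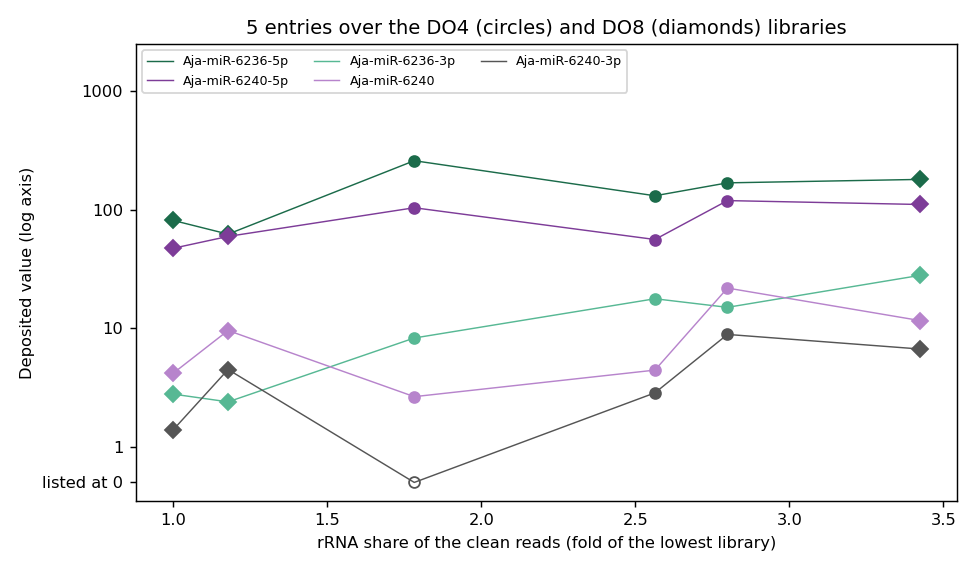
Deposited values (log axis) of the 5 miR-6236 and miR-6240 entries listed in at least 5 of the 6 DO4 (circles) and DO8 (diamonds) libraries against the rRNA share of the clean reads as a fold of the lowest library, with lines joining the libraries of an entry. Aja-miR-6236-3p runs from 2.39 to 27.9 with an r of 0.971, and Aja-miR-6236-5p is highest at a share of 1.78.

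The entries outside these families with the most similar pattern were looked for among the 58 others listed in all 9 libraries. Likeness was Pearson's r of log2(value + 1) over the 9 libraries with the mean over the 6 forms, given as a description of libraries that fall into separate clusters. The highest were Aja-miR-92d (0.964), Aja-miR-1 (0.933), Aja-miR-133 (0.928), Aja-miR-2008 (0.899) and the entry named Aja-miR-125-5p (0.880), and the lowest of the 58 was -0.961. The entry named Aja-miR-125-5p had values of 46.3 to 96.8 outside DO2. Under the same name the paper lists a far more abundant miRNA that was lower at DO2. The 6 forms themselves had r of 0.983 to 0.995 with their mean, of which they are a part.

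Aja-miR-92d had values of 213, 221 and 68.8 at DO2 and of 19.0 to 33.1 in the others, and its DO2 median was 8.08 times that of the rest. For Aja-miR-1, a muscle miRNA, this ratio was 7.20, and for Aja-miR-133, which acts in muscle too, it was 4.71. It was 3.18 for Aja-miR-2008 and 2.57 for Aja-miR-125-5p. These are all below the 134 of the summed families. Over the 6 DO4 and DO8 libraries alone, the same r was -0.11, -0.37, 0.43, 0.16 and 0.57 in the order named, so the likeness across the 9 libraries was mainly one of DO2 against the rest. Entries not listed in all 9 libraries were left out of this search. A large excess at DO2 was not particular to the families. The difference of DO2 from DO8 in log2(value + 1) was 4.45 (SE 0.90) for Aja-miR-235a. It was 5.56 and 5.02 for the predicted entries listed at DO2 alone, beside 4.84 (SE 0.60) for Aja-miR-1973-5p.

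A list of further entries whose families are known from other species to resemble tRNA, rRNA or other structural RNA was also counted. Of its 10 entries 5 were tested, and 0 were called higher and 2 lower at DO2 than at DO8, namely Aja-miR-2478b-3p and Aja-miR-7977, against 23.3% higher and 7.78% lower over the 90 entries. Their differences in log2(value + 1) were -2.79 (SE 0.90) and -2.84 (SE 0.80). The floor of 3 reads stood at 3.65 to 18.6 at DO2 and at 1.67 to 2.05 elsewhere, so low values can go unlisted at DO2. The part of depth in these calls was not tested. The 5 tested were Aja-miR-1260, Aja-miR-2478a-5p, Aja-miR-2478b-3p, Aja-miR-2478d and Aja-miR-7977. All are of tRNA-like families, so no further rRNA-like entry was tested. Aja-miR-2478a-5p ran the other way against DO8, at 0.65 (SE 0.92). The median difference of the list from DO8 in log2(value + 1) was -1.57, against -0.03 over all 90 entries. Between DO2 and DO4, 0 of the 5 were called, against 24.4% higher and 6.67% lower over the 90, with a median of -0.71 against -0.14, and between DO4 and DO8 0 were called as well. The summed values of the list were 7.30 to 69.4 at DO2, 59.9 to 291 at DO4 and 140 to 213 at DO8.

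Markers of other tissues were examined because pools may differ in what they hold. Of 6 muscle entries 5 were tested, and 2 were called higher at DO2 than at DO8 and 2 higher than at DO4, against 23.3% and 24.4% over all 90 entries. Not all ran this way, since the difference of DO2 from DO8 was -3.79 for Aja-miR-133a-5p and -0.47 for Aja-miR-133-3p on the log2(value + 1) scale, neither of them called. The muscle entries summed to 77416 to 129224 at DO2, 73264 to 95945 at DO4 and 54758 to 69823 at DO8. Of 9 entries of the nervous system 8 were tested and 3 were called higher at DO2 in both comparisons, beside the same 23.3% and 24.4%. The entries called were Aja-miR-137, Aja-miR-153-1-p5 and Aja-miR-153-3p. Others ran the other way, with differences of DO2 from DO8 of -0.75 for Aja-miR-9-5p and -0.17 for Aja-miR-124, neither called. The nervous system entries summed to 2176 to 3776 at DO2 against 1848 to 2442 elsewhere. Of 3 digestive tract entries 1 was tested, Aja-miR-375-3p, which was called higher at DO2 than at DO4 but not called against DO8. Of 6 vertebrate blood and liver entries 1 was tested and it was not called. The part of these markers in the values of the families was not tested.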

How the data were processed

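The deposited files list, for each library, miRNA names, sequences and a signal made by the authors: reads scaled with a factor per library. The methods give a division by clean reads (per 1000000), but the values do not follow it: 1 read would be worth 0.103 in DO2_1, where 6.18 was found. The factor used is therefore unknown. The authors removed rRNA, tRNA, snRNA and snoRNA reads, matched the rest to miRBase 21.0 with up to 2 mismatches, and predicted further miRNAs with MIREAP. The processing notes name CASAVA 1.5. Every column used was mapped to a library.

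Entries were joined by name and sequence, and those with a value in each of the 3 libraries of some group were tested. limma 3.58.1 (R 4.3.3) was run on log2(value + 1) over all 9 libraries, with 1 mean per group and trended variances, and p was adjusted by the Benjamini-Hochberg method (threshold 0.05). As a check of the code, the fit was run on simulated data with a smaller mean spread than these data and a large shift. That check does not tell how the fit performs at the spread found here. Reads were worked out from the value steps, whose smallest unit is a part of a read, and hold for 65.5% to 81.1% of values as whole reads. Among the units that the steps allow, the one closest to the study's total of predicted miRNA reads was taken. Single values were compared by exact permutation tests in scipy 1.17.1 under Python 3.11.15, with tables handled in pandas 2.3.3 and numpy 2.4.6. rRNA, tRNA and snRNA reads and clean reads are the study's class totals.

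All entries of the families were named, with the 5 entries most like them and the members of a list called in the text. Members and lists were chosen with earlier results of these data known. Alternatives were other filters, pseudocounts, scalings, a fit of the groups compared, a replicate block and leaving out each library.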

Additional observations from a re-analysis of the deposited data

How the results depend on the processing

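The counts over all tested entries, main values 28, 28 and 0 called for DO2 against DO8, DO2 against DO4 and DO4 against DO8, depended on the scaling. With clean reads as library size 65 (13 higher, 52 lower) and 63 (13 higher, 50 lower) were called, and the median of all entries lay at -1.52 and -1.46 on the log2 scale. With equal totals 34 (30 higher, 4 lower) and 37 (36 higher, 1 lower) were called, with medians of 0.51 and 0.62, and with the 10 entries left out of the totals 30 (29 higher, 1 lower) and 37 (36 higher, 1 lower). As deposited, the calls were 21 higher and 7 lower, and 22 higher and 6 lower. For DO4 against DO8, 1 was called with 0.01 added in place of 1, and 2 in a fit of only these groups. The causes were not tested. Leaving out single libraries gave 18 (without DO8_1) to 47 (without DO2_1) for DO2 against DO8, 24 to 47 (without DO2_1) for DO2 against DO4, and 0 to 2 for DO4 against DO8, with 2 without DO2_1, 1 without DO4_2 and 1 without DO4_3. Of the 5 entries with values above 0 at DO4 or DO8, 0 were called between these groups in each alternative run, and the other 5 could not be called.

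With the replicate number as a block, 26, 27 and 0 entries were called. The numbers do not pair the libraries: the deviations of same-numbered libraries correlated at -0.37 to 0.23, with 2 of 9 pairs above 0.1.

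Scaled to the study's miRNA totals, both families had 26.7, 25.3 and 24.8 reads per 1000 rRNA reads in DO2, DO4 and DO8, since every library's reads rise. Leaving out a library gave 14.3 to 18.03, 11.1 to 17.2 and 12.9 to 14.9. The ratio of miR-6240 to miR-6236 was 1.57 to 1.98, 0.412 to 0.622 and 0.625 to 0.884 with a library left out. From the forms without a suffix alone it was 51.7 in DO2, with no value elsewhere because Aja-miR-6236 is listed at 0. Of single entries, the difference of DO4 from DO8 reversed for Aja-miR-6240 (-0.99 to 0.33, with 0.33, 0.05 and 0.05 in the reversed cases) and Aja-miR-6240-3p (-1.25 to 0.41). It ranged from 0.43 to 1.97 for Aja-miR-6236-3p, 0.56 to 1.32 for Aja-miR-6236-5p and 0.12 to 0.73 for Aja-miR-6240-5p. The r of Aja-miR-6236-3p with the rRNA share was 0.954 from reads per clean read and 0.982 against rRNA reads per miRNA read. Apart from leaving out a library, 89 values under alternatives were classed as kept and 8 as moved. A count was kept within 1.5 times the main count, or at 0 where that was 0, whatever the direction of the calls. A group mean was kept within its SD. Differences and correlations were kept with the same sign and side of the threshold. Both families together have 231 to 580 reads in a DO4 or DO8 library, which limits the precision of their values there.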
